A study of Mus musculus with 12 samples.

Results

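The genes described here are 10 chemokines read in mouse heart tissue: Cxcl9, Cxcl10, Cxcl12, Cxcl14, Cx3cl1, Ccl2, Ccl5, Ccl7, Ccl8 and Ccl9. They were found by matching the accession of each probe on the array to these genes, which gave 12 of the 55681 different probes. All 10 were among the 29795 genes or unnamed features tested. RNA from the heart apex of male C57BL/6J mice aged 15 weeks was hybridised to 12 single-colour Agilent arrays, 3 a group. The mice carried knock-in alleles of Nkx2-5, a homeobox transcription factor of heart muscle: control/+ (an allele that keeps the isoleucine), I183M/+ (isoleucine to methionine), I183P/+ (isoleucine to proline) and delta/+ (full deletion). All 4 labels also give a + allele, so each mutant line is compared with knock-in controls and not with unaltered mice. The labels do not say whether replicates are separate animals, and p-values therefore measure only the spread between these samples, which may be technical.

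Chemokines are small secreted proteins that guide leukocytes by binding G protein-coupled receptors on them. In heart, resident macrophages, endothelial cells and fibroblasts are known sources. Some chemokines, such as Cxcl12, are made constantly, whereas others, such as Cxcl9, Cxcl10 and Ccl2, are induced by interferons or by inflammatory signals through NF-kB.

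Some facts of the whole series bear on these genes. Levels are log2 intensities minus the 75th percentile of the same array, so that percentile is 0 and a difference of 1 is a ratio of 2. Control replicate 1 stood apart: 99.1% of its spots were well above background, against 51.2% to 75.2% on the other 11 arrays. Next were delta replicate 2 (75.2%) and I183M replicate 1 (72.8%), and the rest reached at most 60.5%. The 75th percentile subtracted from each level was an intensity of 1450 on control replicate 1, against 507 to 657 on the other arrays. Control replicate 1 was the lowest of the 12 arrays for 7 of the 10 chemokines, and results are given with and without it. Slide 1 held the control and I183M arrays and I183P replicates 1 and 2. Slide 2 held I183P replicate 3 and the delta arrays, so control and delta never shared a slide. Nkx2-5 itself read 3.77 to 3.93 on the delta arrays and 4.45 to 4.73 on the other arrays, with control replicate 1 (3.11) left out. All 6 ventricular cardiomyocyte markers, all 6 endothelial markers and all 6 fibroblast markers were well above background on all 12 arrays.

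Cxcl9 and Cxcl10, neighbours on chromosome 5, are interferon-induced ligands of Cxcr3, a receptor of activated T cells and NK cells. Their promoters are shown because the pair read high on the same arrays. The RefSeq sequences (GRCm38.p6, minus strand) are the 250 bases before each start, chr5:92328080-92328329 for Cxcl9 and chr5:92348890-92349139 for Cxcl10. Capitals mark motif matches.
Cxcl9: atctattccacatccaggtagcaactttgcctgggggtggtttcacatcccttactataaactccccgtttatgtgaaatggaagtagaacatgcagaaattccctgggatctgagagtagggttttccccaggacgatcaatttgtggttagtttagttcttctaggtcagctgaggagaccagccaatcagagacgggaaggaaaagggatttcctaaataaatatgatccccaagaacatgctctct
Cxcl10: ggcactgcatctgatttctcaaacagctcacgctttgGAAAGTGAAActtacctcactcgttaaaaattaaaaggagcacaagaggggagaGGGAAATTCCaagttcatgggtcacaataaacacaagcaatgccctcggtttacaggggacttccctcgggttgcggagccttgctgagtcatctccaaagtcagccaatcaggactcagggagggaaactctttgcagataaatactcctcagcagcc
Both strands were searched for the interferon-stimulated response element as GAAA, any 2 bases and GAAA, the gamma-activated site as TTCNNNGAA and an NF-kB site as GGGA, any 2 bases and TTCC. The Cxcl10 window held GAAAGTGAAA at 204 to 213 bases before the start and GGGAAATTCC at 150 to 159 bases before it, and the 2 matches did not overlap. The Cxcl9 window held no match. Of the 7 chemokines with a promoter available, Cxcl14 also held matches. These were the response element at 163 to 172 bases before its start and the gamma-activated site at 183 to 191 bases. Of 32851 promoter windows of the same kind, 2.98% held the response element, 7.02% the gamma-activated site and 1.21% the NF-kB site. A match describes letters and is not a measured binding site.

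No chemokine passed the threshold in any comparison by limma, with a Benjamini-Hochberg adjusted p under 0.05 over all features. Against control the counts were 0 of 10 in I183M, where 0% of all features passed, 0 of 10 in I183P, where 0.00336% passed, and 0 of 10 in delta, where 0.0738% passed. Each of the 3 comparisons between mutant lines also gave 0 of 10, and 0% of features passed there. At an unadjusted p under 0.05, Cxcl9 was counted in I183P against control (5.19% of all features), and no chemokine in I183M (1.48%) or delta (7.43%). Each gene is counted from its brightest probe, and the second probes of Cxcl9 and Cxcl12 are given below. Between mutant lines, Cxcl9 and Cxcl10 were counted in I183P against I183M (1.27%), Cxcl10 in delta against I183M (3.51%) and none in delta against I183P (2.79%). Without control replicate 1, none was counted against control in I183M (6.14%) or I183P (8.23%), where Cxcl9 had an unadjusted p of 0.0776 by limma. In delta, Cxcl10 was then counted as higher and Cxcl14 as lower (15%). Cx3cl1, Cxcl9 and Cxcl10 were then counted in I183P against I183M (9.56%), and Cxcl9, Cxcl10 and Cxcl12 in delta against I183M (11.5%). In these bulk samples, fewer cells of a type and less RNA per cell cannot be told apart. The plot of differences from control shows how wide the intervals are with 3 arrays a group.

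**Figure D1:**
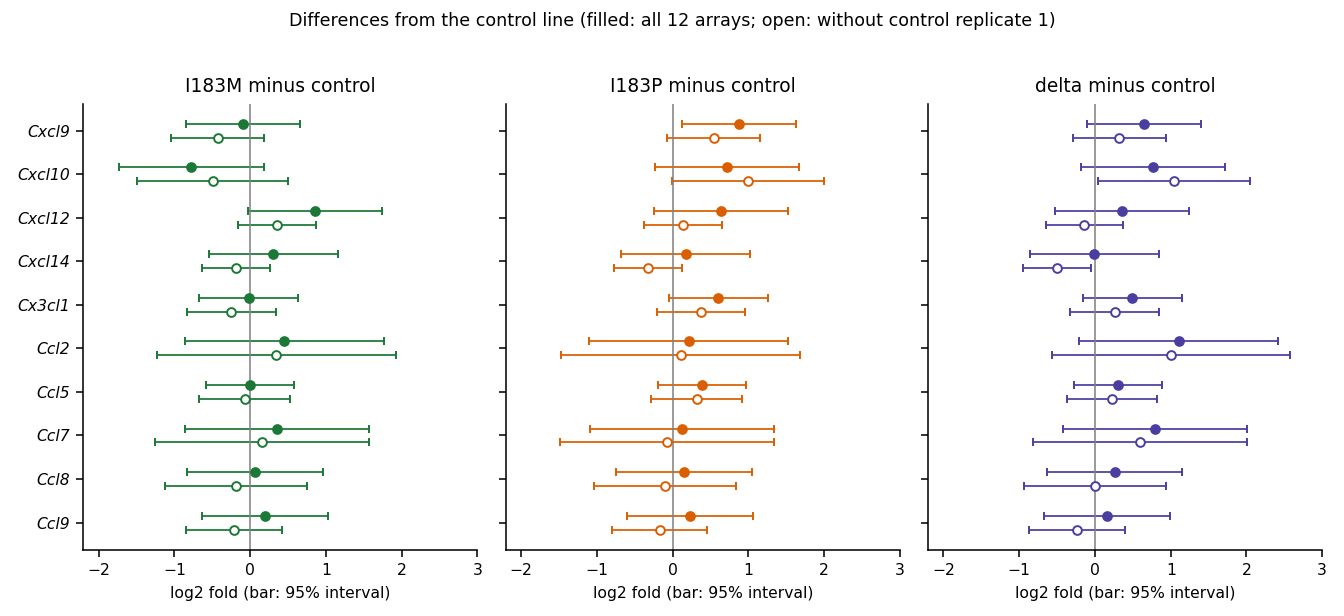
Log2 differences of the 10 chemokines from the control line in I183M, I183P and delta, with 95% confidence intervals from limma; filled points use all 12 arrays and open points leave out control replicate 1. With all arrays, the interval of Cxcl9 in I183P (0.12 to 1.62) lies above 0 and the other 29 include 0. Without control replicate 1, that of Cxcl9 in I183P (-0.075 to 1.16) includes 0. In delta the interval of Cxcl10 (0.04 to 2.04) then lies above 0 and that of Cxcl14 (-0.95 to -0.05) below 0.

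Cxcl9 read higher on the I183P and delta arrays than on any control or I183M array. Its levels were -1.73, -0.78 and -0.69 on the control arrays and -1.55, -0.89 and -1.04 on the I183M arrays. They were -0.64, -0.12 and 0.18 on the I183P arrays and -0.21, -0.43 and -0.59 on the delta arrays. The control and I183M values overlap, and all I183P and delta values lie above both. Cxcl9 was 1.83 times the control level in I183P (95% interval 1.09 to 3.08, unadjusted p 0.0274, adjusted p 0.564). In delta it was 1.57 times the control level (0.934 to 2.65, adjusted p 0.695). Without control replicate 1 the log2 differences from control were 0.54 in I183P and 0.32 in delta, against 0.87 and 0.65 with it. The I183P difference was 0.69 within slide 1. With the slide as a block, which links delta to control only through the I183P arrays, the Cxcl9 difference of delta was 0.10. Slide and line cannot be told apart between delta and control.

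A second, dimmer Cxcl9 probe to the same transcript repeated this order in some settings only. With all arrays it averaged -1.76 ± 0.68 in control, -2.28 ± 0.43 in I183M, -1.71 ± 0.38 in I183P and -1.84 ± 0.09 in delta (SD, n = 3). Its log2 differences from control were 0.05 in I183P and -0.08 in delta with all arrays. They were 0.44 and 0.31 without control replicate 1, on which this Cxcl9 probe was brightest, and 0.35 (unadjusted p 0.0495, adjusted p 0.499 by limma) and 0.23 with normexp and quantile normalization. The 2 probes had a Pearson correlation of -0.01 over 12 arrays and 0.57 over the 11 arrays without control replicate 1.

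Cxcl10 read lower on the I183M arrays than on the I183P and delta arrays. Its levels were -2.57, -3.75 and -3.06 on the control arrays and -3.51, -4.11 and -4.07 on the I183M arrays. They were -3.08, -2.00 and -2.15 on the I183P arrays and -2.54, -2.84 and -1.71 on the delta arrays. Every I183P and delta value of Cxcl10 lies above every I183M value, while the control values overlap each of the 3 mutant lines. Cxcl10 was well above background on 10 of 12 arrays, the exceptions being I183M replicates 2 and 3, so only 1 I183M array measured it clearly. The other 9 chemokines were well above background on all 12 arrays.

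The following ratios rest on an I183M group in which 1 of 3 arrays was well above background, and their size depends on the background correction. Set against I183M, Cxcl10 was 2.81 times as high in I183P (95% interval 1.45 to 5.44, unadjusted p 0.00599, adjusted p 1). In delta it was 2.90 times as high as in I183M (1.50 to 5.61, unadjusted p 0.00501, adjusted p 0.938). On the log2 scale these differences are 1.49 and 1.54, and they were 0.83 and 0.76 with normexp and quantile normalization, which are ratios of 1.78 (1.12 to 2.82) and 1.69 (1.07 to 2.68). Within slide 1 the I183P difference from I183M was 1.36, and with the slide as a block that of delta was 1.15. Against control, Cxcl10 differed by -0.77 in I183M, 0.72 in I183P and 0.76 in delta on the log2 scale, with adjusted p of 0.877, 0.564 and 0.695. With normexp and quantile normalization the same differences were -0.15, 0.69 and 0.61. These Cxcl10 differences were -0.50, 0.99 and 1.04 without control replicate 1, and the 95% interval of the last, 0.04 to 2.04, lay above 0 (adjusted p 0.317). Non-overlap above I183M held for Cxcl9 and Cxcl10, 2 of 10 chemokines, in I183P (5.75% of all features) and in delta (11.3%).

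Cxcl9 and Cxcl10 followed each other across the 11 arrays without control replicate 1. Pearson's r was 0.71 (permutation p 0.0124, 0.276 after Benjamini-Hochberg adjustment over 45 pairs of chemokines) and Spearman's rho 0.83 (permutation p 0.00251, adjusted 0.0565). Leaving out the 2 arrays farthest from the Cxcl9 median gave r = 0.79, and r was 0.70 over the 7 such arrays of slide 1. Slide 2 has too few arrays for a value of its own. The relation did not pass after adjustment. Arrays of 4 lines are pooled in it, so it holds the difference between lines as well as that between replicates.

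**Figure D2:**
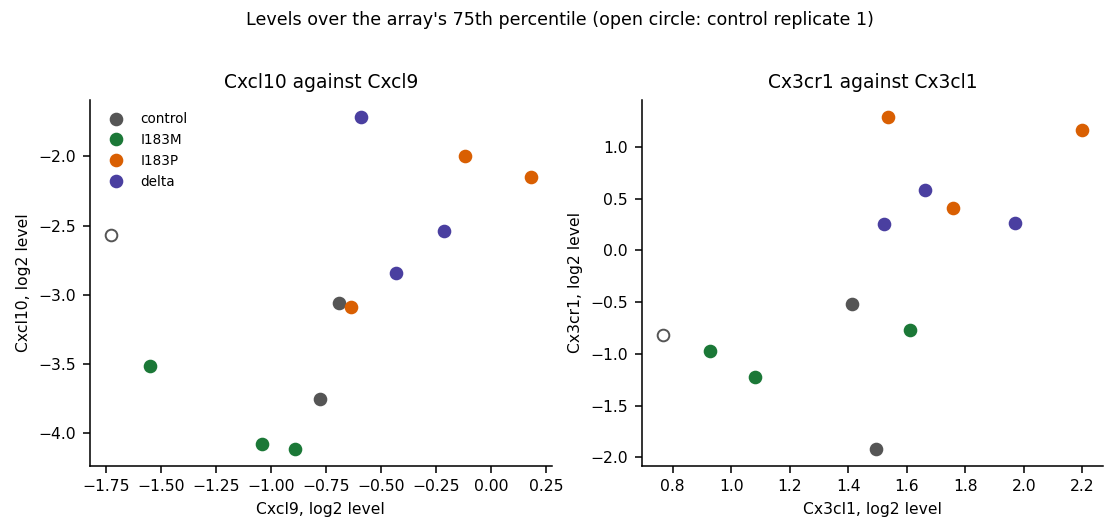
Levels of Cxcl10 against Cxcl9 (left) and of Cx3cr1 against Cx3cl1 (right), in log2 over each array's 75th percentile, with 1 point an array coloured by line; the open circle is control replicate 1. I183M arrays lie low on the Cxcl10 axis (-4.11 to -3.51), and on the Cx3cr1 axis the I183P and delta arrays (0.26 to 1.29) lie apart from the control and I183M arrays (-1.92 to -0.52).

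The induction pathway of Cxcl9 and Cxcl10 was read from 16 genes of interferon gamma and NF-kB signalling. By limma 0 passed the threshold in any comparison with control, and at an unadjusted p under 0.05 there were 0 in I183M, 2 in I183P and 3 in delta, all higher (0.695%, 3.08% and 5.03% of all features were higher at that p). With normexp and quantile normalization, 1 was lower at that p in I183M, where 1.65% of all features were lower. In I183P 1 was higher and 1 lower, against 5.16% and 2.99% of all features. In delta 2 were higher and 1 lower, against 6.7% and 3.1% of all features. Above 0 were 10 of 16 in I183M (median log2 difference 0.18, against 0.11 over all features), 11 in I183P (0.32 against -0.03) and 12 in delta (0.29 against 0.05). Without control replicate 1 these medians were 0.0022, 0.12 and 0.12, against 0.09, 0.01 and 0.16 over all features. With normexp and quantile normalization they were -0.06, 0.09 and 0.09, against 0.02, 0.05 and 0.02. Irf8, an interferon-induced transcription factor of myeloid cells, ranked first in this list by p. It read 0.70, 0.32 and 0.55 on the control arrays and 0.61, 0.54 and 0.45 on the I183M arrays. Its levels were 1.08, 0.87 and 1.21 on the I183P arrays and 1.04, 0.88 and 1.12 on the delta arrays. Irf8, like Cxcl9, thus showed no overlap between I183P or delta and either of the other lines, where 7.5% and 10.8% of all features lay above control in this way. Its differences from control were 0.53 (adjusted p 0.564) and 0.49 (adjusted p 0.584). They were 0.25 and 0.20 with normexp and quantile normalization, and that of delta was 0.26 with the slide as a block. Irf1, the factor that mediates much of the interferon gamma response, differed from control by 0.68 in I183P and 0.71 in delta with all arrays. The Irf1 differences were 0.31 and 0.35 without control replicate 1. Socs1, a feedback inhibitor of this signalling, differed by 0.24 in I183M, 0.31 in I183P and 0.55 in delta with all arrays and by 0.42, 0.49 and 0.73 without control replicate 1.

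Cx3cl1, or fractalkine, is a membrane-anchored chemokine of endothelium and other cells, and its receptor Cx3cr1 marks monocytes and macrophages. Cx3cl1 read 0.77, 1.50 and 1.41 on the control arrays and 1.61, 1.08 and 0.93 on the I183M arrays. Its levels were 2.20, 1.76 and 1.54 on the I183P arrays and 1.66, 1.52 and 1.97 on the delta arrays. All I183P and delta values exceed the highest control value, while I183M replicate 1 lies among them. Cx3cl1 was 1.52 times the control level in I183P (95% interval 0.968 to 2.39, adjusted p 0.564), 1.41 times in delta (0.895 to 2.21, adjusted p 0.695) and 0.987 times in I183M (0.628 to 1.55, adjusted p 0.995). Without control replicate 1 the log2 differences were 0.38 in I183P and 0.26 in delta, against 0.61 and 0.49 with it. With normexp and quantile normalization they were 0.28 and 0.16. Within slide 1 the I183P difference was 0.75, and with the slide as a block that of delta was 0.94.

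The receptor showed a wider gap along the same lines. Cx3cr1 read -0.82, -1.92 and -0.52 on the control arrays and -0.77, -1.22 and -0.97 on the I183M arrays. It read 1.16, 0.41 and 1.29 on the I183P arrays and 0.59, 0.26 and 0.26 on the delta arrays. Neither I183P nor delta overlaps control or I183M. Of all features, 7.5% in I183P and 10.8% in delta lay above control in this way, and 5.75% and 11.3% above I183M. Cx3cr1 was named as the tested receptor with the smallest p against control. Cx3cr1 differed from control by 2.04 in I183P (SE 0.38, unadjusted p 0.000324, adjusted p 0.323) and by 1.45 in delta (SE 0.38, unadjusted p 0.0033, adjusted p 0.331), which misses the threshold over all features. The I183P difference of Cx3cr1 was 1.87 within slide 1, and that of delta was 0.95 with the slide as a block. Beside these values, the 6 tested macrophage and monocyte markers had a median difference of 0.44 in I183P and 0.18 in delta with all arrays, 4 of 6 above 0 in each line, and of 0.00 and -0.27 without control replicate 1, where Cx3cr1 differed by 2.17 and 1.59. Endothelial markers had medians of 0.59 in I183P and 0.55 in delta with all arrays and of 0.27 and 0.20 without control replicate 1, with 5 of 6 above 0 in each line and setting. Of all features, 48.8% and 52.3% were above 0 in I183P and delta with all arrays, and 51.7% and 67.1% without control replicate 1. The part of either cell type in the Cx3cl1 and Cx3cr1 values was not tested.

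Ccl2, Ccl7 and Ccl8 attract monocytes through Ccr2 and related receptors. Ccl2 read -0.01, 0.47 and 0.13 on the control arrays, 1.29, 0.53 and 0.12 on the I183M arrays and 0.86, 0.04 and 0.33 on the I183P arrays. On the delta arrays it read 0.50, 0.57 and 2.83. Delta replicate 3 is far above the other 11, and I183M replicate 1 comes next. The Ccl2 probe is printed in 10 spots an array, of which 9 were usable on I183M replicate 2. On delta replicate 3 these spots ran from 2.75 to 2.92 with an SD of 0.06, while the spot SD on all 12 arrays was 0.05 to 0.08. The gap of 2.26 between delta replicate 3 and the higher of its fellows is thus far wider than the spread between spots, and only 0.0671% of all features had a gap as large. Ccl2 was 2.15 times the control level in delta (95% interval 0.865 to 5.34, adjusted p 0.695). Without delta replicate 3 its log2 difference from control was 0.34, against 1.10 with it.

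Ccl7, whose product shares receptors with Ccl2, showed the same array. Its levels were -1.09, -0.26 and -0.72 in control, 0.09, -0.34 and -0.74 in I183M and -0.05, -0.93 and -0.72 in I183P. In delta they were -0.56, -0.62 and 1.47. Outside delta replicate 3 the 4 groups overlap, and the gap of 2.03 on that array was matched by 0.111% of features. The difference of Ccl7 from control in delta was 0.79 (SE 0.54, adjusted p 0.700), and 0.10 without delta replicate 3. Ccl8 read -1.16, -0.21 and -0.56 in control, -0.04, -0.47 and -1.22 in I183M, -0.38, -0.36 and -0.73 in I183P and -0.24, -1.06 and 0.14 in delta. Its groups overlap throughout, and its difference from control in delta was 0.26 with all arrays and -0.0017 without delta replicate 3.

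**Figure D3:**
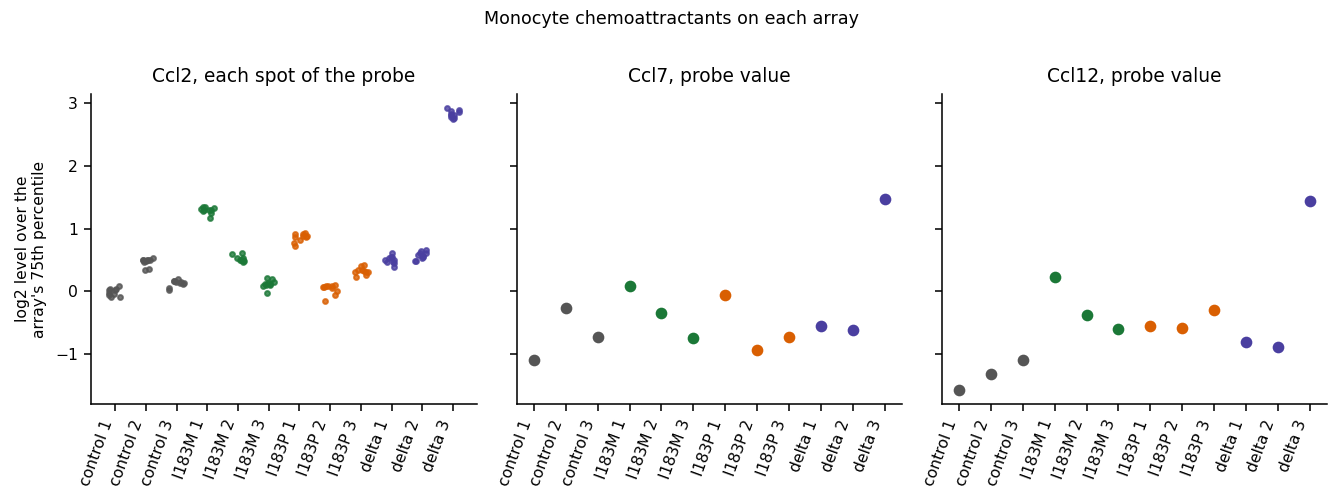
Levels of Ccl2 (each spot of its probe), Ccl7 and Ccl12 on each of the 12 arrays, in log2 over the array's 75th percentile, coloured by line. Delta replicate 3 is the highest array for all 3 genes (2.83, 1.47 and 1.43), and the spots of Ccl2 lie close together on every array.

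Ccl2 and Ccl7 varied together on the other arrays as well. Over the 11 arrays without control replicate 1, r was 0.98 (permutation p 1e-05, the smallest the permutations can give, 0.00045 after adjustment over the 45 pairs) and rho 0.91 (permutation p 0.00025, adjusted 0.0112). Without delta replicate 3 r was 0.91, and without it and I183M replicate 1, the arrays farthest from the Ccl2 median, r was 0.87. Within slide 1 r was 0.95 over 7 arrays. This was the only pair of the 45 that passed after adjustment, by either coefficient.

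Ccl12, a close relative of Ccl2 that is not among the 10, was highest on delta replicate 3 too, at 1.43 against -0.81 and -0.89 on its fellows. It read -1.57, -1.32 and -1.10 on the control arrays, 0.23, -0.38 and -0.60 on the I183M arrays and -0.56, -0.58 and -0.29 on the I183P arrays. All 9 mutant values of Ccl12 lie above all 3 control values, with differences of 1.08, 0.85 and 1.24 in I183M, I183P and delta (adjusted p 0.877, 0.564 and 0.665). Above control without overlap were 2.62%, 7.5% and 10.8% of all features in these lines. Without delta replicate 3 the Ccl12 difference of delta was 0.48. Some gene lists other than the 10 chemokines were also above their mean on delta replicate 3. The 17 other chemokines tested averaged 0.88 above their mean over the 11 arrays there. Atrial cardiomyocyte markers averaged 1.18 above theirs, adipocyte markers 1.13, neutrophil markers 0.89, B cell markers 0.83, T cell markers 0.30, macrophage and monocyte markers 0.15, NK cell markers -0.21, smooth muscle and pericyte markers -0.24 and fibroblast markers -0.29. Mesothelial markers averaged 0.36, interferon gamma and NF-kB signalling genes 0.29, endothelial markers 0.18, chemokine receptors 0.17, chemokine proteases 0.08 and ventricular markers 0.03. Of the 11 arrays this one was highest for the other chemokines, the B cell markers and the signalling genes. Several lists were higher elsewhere. Atrial markers averaged 2.65 on delta replicate 1 and neutrophil markers 1.41 on I183P replicate 1. On I183M replicate 1, adipocyte markers averaged 1.30 and T cell markers 1.13. T cell markers also averaged 1.09 on delta replicate 2, and these arrays had 72.8% and 75.2% of spots well above background. Well above background on all 12 arrays were 0 of 4 adipocyte, 2 of 6 T cell, 2 of 5 NK cell and 1 of 4 B cell markers. The averages of these 4 lists thus rest mostly on dim probes. The part of any list in the Ccl2 and Ccl7 values was not tested.

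Cxcl12 is the ligand of Cxcr4 and of the scavenger receptor Ackr3, and stromal cells make it constantly. Its brighter probe read 4.20, 5.69 and 5.69 on the control arrays and 5.74, 6.14 and 6.27 on the I183M arrays. It read 6.03, 5.88 and 5.58 on the I183P arrays and 5.89, 5.45 and 5.33 on the delta arrays. By this probe all I183M values lie just above control, and I183P and delta overlap control. Cxcl12 was 1.81 times the control level in I183M (95% interval 0.983 to 3.34, adjusted p 0.877), 1.56 times in I183P and 1.28 times in delta. Without control replicate 1 the log2 differences were 0.36, 0.14 and -0.14, against 0.86, 0.64 and 0.36 with it, so the sign in delta turns. The second Cxcl12 probe, to another transcript, read -0.64, 0.04 and 0.22 on the control arrays. Every mutant value of this probe lies above these, from 0.25 in I183M, 0.47 in I183P and 0.24 in delta. Above control without overlap were 2.62%, 7.5% and 10.8% of all features. Its log2 differences were 0.78, 0.64 and 0.55 with all arrays (unadjusted p 0.0194, 0.0463 and 0.0797 by limma, adjusted p 0.953, 0.571 and 0.753). They were 0.52, 0.38 and 0.29 without control replicate 1. The correlation of the 2 probes was 0.85 over 12 arrays and 0.58 over 11.

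Cxcl14, an epithelial and stromal chemokine, read 1.83, 3.50 and 3.12 on the control arrays and 3.06, 3.23 and 3.07 on the I183M arrays. It read 3.21, 2.91 and 2.83 on the I183P arrays and 2.63, 2.67 and 3.12 on the delta arrays. Apart from control replicate 1 the control values are among the highest and delta replicates 1 and 2 the lowest. The log2 difference of delta from control was -0.01 with all arrays (SE 0.38, adjusted p 0.995), -0.50 without control replicate 1 and -0.39 with normexp and quantile normalization, where delta lay below control without overlap (5.14% of all features). With the slide as a block it was 0.22, so the direction of Cxcl14 in delta depends on the setting.

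Ccl5 and Ccl9 showed no separation between lines. Ccl5, a T cell and platelet chemokine, read -0.80, -0.89 and -0.28 in control, -0.64, -0.37 and -0.95 in I183M, -0.04, -0.56 and -0.19 in I183P and -0.15, -0.62 and -0.30 in delta. All groups overlap, and its ratio to control was 1.00 in I183M (95% interval 0.670 to 1.50), 1.31 in I183P (0.878 to 1.96) and 1.23 in delta (0.822 to 1.84). Ccl9, a myeloid chemokine that binds Ccr1, read 0.90, 2.06 and 2.16 in control, 2.28, 1.81 and 1.61 in I183M, 2.44, 1.60 and 1.78 in I183P and 1.77, 1.77 and 2.08 in delta. Its differences from control were 0.19, 0.23 and 0.16 with all arrays and -0.21, -0.17 and -0.24 without control replicate 1. The sign of the Ccl9 differences thus turns in all 3 lines with 1 array left out.

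**Figure D4:**
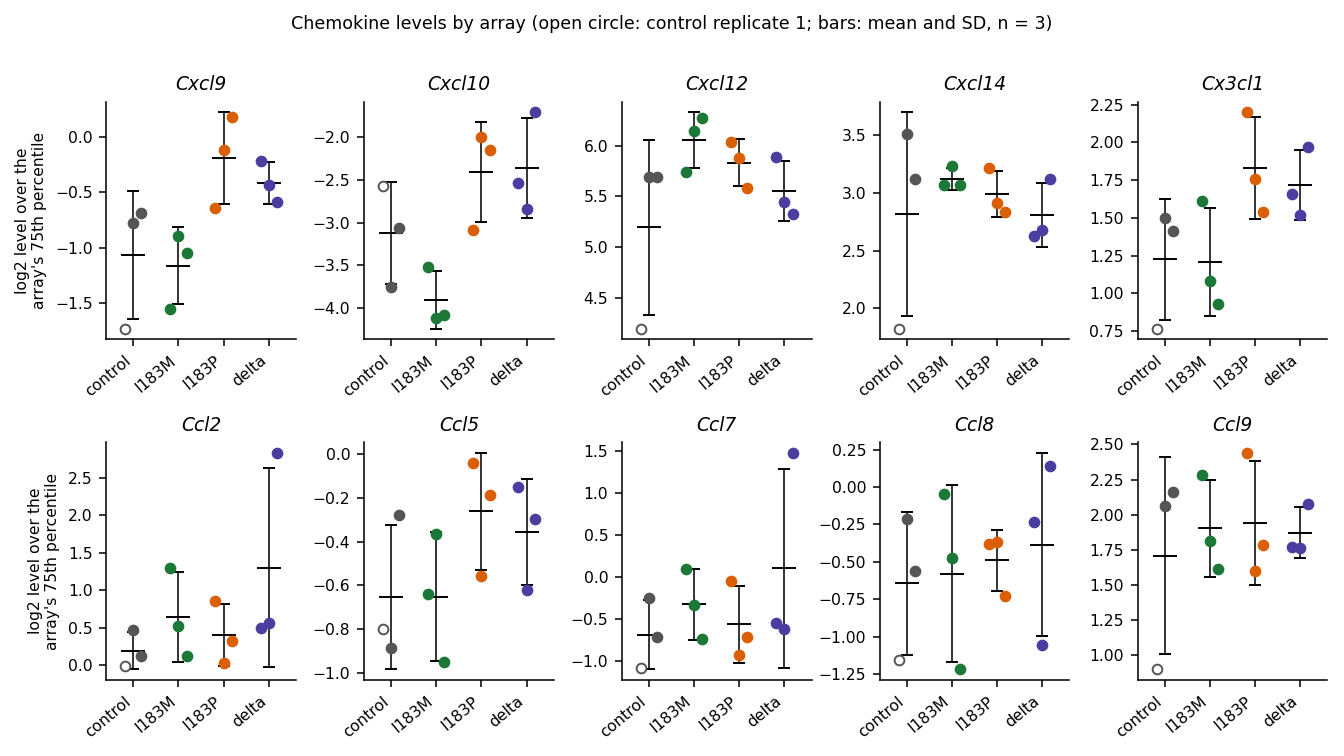
Levels of the 10 chemokines on each array, in log2 over the array's 75th percentile, by line; bars give the mean and SD of 3 arrays, the open circle is control replicate 1, and each panel has its own vertical scale. Cxcl9 reads high in I183P and delta (-0.64 to 0.18), Cxcl10 low in I183M (-4.11 to -3.51), and 1 delta array stands far above the rest in Ccl2 (2.83) and Ccl7 (1.47).

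Read from the brightest probe of each gene, groups that did not overlap with control were few. Cxcl12 in I183M was 1 of 10, where 2.62% of all features lay above control without overlap. In I183P these were Cxcl9 and Cx3cl1 (7.5% of all features), and in delta Cxcl9, Cx3cl1 and Ccl2 (10.8%). With normexp and quantile normalization the genes above control without overlap were Cxcl12 in I183M (3.47% of features), Cxcl9 in I183P (10.1%) and Ccl2 in delta (10.2%), so that of Cx3cl1 was lost in both lines and that of Cxcl9 in delta. With all arrays no chemokine lay below control without overlap in any line (1.33%, 5.24% and 3.07% of features). Differences above 0 numbered 7 of 10 in I183M, 10 in I183P and 9 in delta, with medians of 0.13, 0.31 and 0.43. Of all features 56.7%, 48.8% and 52.3% were above 0 in these lines, with medians of 0.11, -0.03 and 0.05. Without control replicate 1 the chemokines above 0 numbered 3, 6 and 7, with medians of -0.19, 0.12 and 0.24. Of all features 64%, 51.7% and 67.1% were then above 0, with medians of 0.09, 0.01 and 0.16.

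The order of the 4 lines by mean level was I183P, delta, control, I183M for Cxcl9 and Cx3cl1, and delta, I183P, control, I183M for Cxcl10. Leaving out control replicate 1 kept these 3 orders. Neighbours in them, I183P and delta, overlapped for all 3 genes. For Ccl2 the order was delta, I183M, I183P, control, with or without that array, and apart from delta above control its groups overlapped.

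Beyond the 10 chemokines, 17 of 27 other chemokines and 19 of 23 chemokine receptors were tested. By limma 0 passed in any line, and at an unadjusted p under 0.05 the other chemokines counted 0, 1 and 2 and the receptors 0, 1 and 1 in I183M, I183P and delta, all higher. The shares of all features higher at that p were 0.695%, 3.08% and 5.03%. With all arrays 1 or 2 genes a list is thus near the background. Without control replicate 1 the receptors counted 2, 5 and 3, all higher (4.79%, 3.92% and 9.78% of all features). With normexp and quantile normalization they counted 0, 4 and 2, all higher (1.43%, 5.16% and 6.7%). The other chemokines counted 0, 1 and 2 higher in both settings, with 1 lower in I183M in the first and 1 in I183P in the second. None passed after adjustment. With all arrays, 8, 9 and 12 of the other chemokines were above 0 in I183M, I183P and delta, and 6, 8 and 8 of the receptors. The shares of all features above 0 were 56.7%, 48.8% and 52.3%. Of the 19 receptors, 13, 14 and 16 (68.4%, 73.7% and 84.2%) were above 0 without control replicate 1. For all features these shares were then 64%, 51.7% and 67.1%. Cxcl16, a membrane-anchored chemokine that, like Cx3cl1, is shed by proteases, differed from control by 0.68 in I183P and 0.62 in delta (adjusted p 0.564 and 0.629). Adam10, which sheds both, differed by 0.50, 0.59 and 0.59 with all arrays and by 0.10, 0.19 and 0.19 without control replicate 1. Ackr3, the scavenger of Cxcl12, differed by 0.26, 0.52 and 0.43 with all arrays, by -0.01, 0.25 and 0.15 without that array, and by -0.09, 0.17 and -0.01 with normexp and quantile normalization, so its sign turned in I183M and delta. Outside control replicate 1, no probe of Cxcl2, Cxcl3, Ccl1, Ccl20, Ccl22, Cxcl15 or Cxcl17 was well above background on any array, nor any of Ccr1, Ccr4, Cxcr1 or Xcr1. Ccr1, the receptor of Ccl9 named above, was therefore not measured there.

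For each chemokine well above background on all arrays, the genes with the most similar profile over the 11 arrays were listed by Pearson's r, as a description over arrays that share slides and scaling. Cx3cl1 was most like Cldn5 (0.93), the tight junction protein of endothelium, then Prune2 and Ltb (both 0.92). Cxcl12 was most like Ccdc80 (0.96), Rnpep (0.93) and Serpinf1 (0.92), and Cxcl14 most like Htra3 (0.95), Paqr6 (0.93) and Scarb2 (0.92). Ccl9 was most like Ccl6 (0.92), another myeloid chemokine, followed by Tdp2 (0.89) and Cdkn1a (0.88). Ccl2 and Ccl7 were most like each other, followed for both by Popdc3 (0.97) and Adipor2, over arrays that include delta replicate 3. Cxcl9 was most like Mettl26 and Cdyl2 (both 0.92) and Trim35 (0.90), Ccl5 like Arnt (0.89), Slc8b1 (0.87) and Rab33b (0.87), and Ccl8 like Acot4 (0.91), Spire1 (0.90) and Npl (0.89).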

How the data were processed

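Heart RNA was measured on 12 single-colour Agilent arrays, 3 for each of 4 lines. The deposited scanner files hold spot intensity values from Feature Extraction, per the file headers, including a background-subtracted processed signal. The authors also deposited a table of log2 values, whose normalization is not given in the sources used here and which served as an alternative. Here, log2 of the processed signal was centred on each array's 75th percentile without control spots and outlier flags, and spots of a probe were averaged. Probes with values on all arrays and well above background on at least 3 of 12 arrays were tested, 41591 in all. Probes were named by accession through the RefSeq table of GRCm38.p6. Of several tested probes of a gene the one with the highest mean stood for it, giving 29795 features, 17258 with a symbol. The fit over all arrays was made by lmFit and eBayes of limma 3.58.1 (R 4.3.3), with Benjamini-Hochberg adjusted p over all features in each of 6 comparisons, and it was tested on simulated data. Correlations and sequences used Python 3.11.15 with pandas 2.3.3 and scipy 1.17.1. The number of arrays limits the precision.

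The members and gene lists were chosen with earlier results of these data known. Named were all members, the 3 symbols most correlated with each member well above background on all arrays, up to 5 genes of each pathway list with the smallest p against control, the member with the smallest p in each direct comparison, and Nkx2-5. Cxcl9 and Cxcl10 promoters were picked after their values were seen. Promoters of 7 of the 10 members were in the table used.

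Alternatives were normexp background correction (offset 50) with quantile normalization, the authors' table, no filter on dim probes, a filter of all arrays of a group, the slide as a block, each slide alone, the replicate number as a block, and each array left out in turn. Normexp used the median signal, since the files analysed have no mean signal column. One alternative, normexp with control replicate 1 left out, was added after seeing the data.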

Additional observations from a re-analysis of the deposited data

Results flagged for a closer look

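Cxcl10 lay on opposite sides of control in different mutant lines. Every I183P array was above the control mean of -3.13 and every I183M array below it, and the difference between these lines was 1.49 on the log2 scale. The same held for delta and I183M, with a difference of 1.54. The direct limma tests of these differences gave adjusted p of 1 and 0.938, and 2 of the 3 I183M arrays were not well above background for Cxcl10.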

How the results depend on the processing

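The number of the 10 chemokines past the threshold was 0 in each of the 6 comparisons under every one of the 21 alternatives that could give that comparison. Single differences were recomputed 649 times, for 10 chemokines against control and 1 chemokine in each comparison between mutant lines. The sign turned 55 times, in 15 of 33 results, and the cause was not tested. Cxcl10 kept its direction throughout, as did Cxcl9, Cx3cl1 and Ccl5 in I183P and delta. With normexp and quantile normalization and in the authors' deposited table, in that order, the differences that turned were 0.30 and 0.38 for Cxcl9, -0.0951 and -0.0959 for Cxcl14 and -0.12 and -0.11 for Ccl9 in I183M, then both -0.21 for Cxcl14 and -0.0856 and -0.0859 for Ccl9 in I183P, and -0.12 and -0.13 for Cxcl12 and both -0.17 for Ccl9 in delta. With normexp and control replicate 1 left out, they were -0.17 (Cxcl14), -0.0331 (Ccl5), -0.13 (Ccl8) and -0.17 (Ccl9) in I183M. In the same setting they were -0.29 (Cxcl14), -0.0925 (Ccl7), -0.11 (Ccl8) and -0.14 (Ccl9) in I183P, and -0.13 (Cxcl12), -0.12 (Ccl8) and -0.23 (Ccl9) in delta. With the slide as a block, Cxcl14 in delta was 0.22. With each array left out in turn, the I183M differences ran from -0.43 to 0.10 for Cxcl9, -0.19 to 0.65 for Cxcl14, -0.25 to 0.12 for Cx3cl1, -0.14 to 0.19 for Ccl5, -0.20 to 0.39 for Ccl8 and -0.21 to 0.42 for Ccl9. Those of I183P ran from -0.32 to 0.51 for Cxcl14, -0.0136 to 0.40 for Ccl2, -0.14 to 0.34 for Ccl7, -0.10 to 0.37 for Ccl8 and -0.17 to 0.46 for Ccl9. Those of delta ran from -0.14 to 0.61 for Cxcl12, -0.50 to 0.34 for Cxcl14, -0.0017 to 0.60 for Ccl8 and -0.24 to 0.39 for Ccl9. Same-numbered arrays did not deviate together (r from -0.81 to 0.79 over 18 pairs, 6 of them over 0.1). With the replicate block, the counts stayed 0 and Cxcl10 differed by 1.49 between I183P and I183M. Control and delta share no slide, so that difference has no value within a slide. Signal over background limits Cxcl10, which was not well above background on 2 I183M arrays.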

Other observations

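Other chemokines of heart gave values in different directions. Ccl11, an eosinophil attractant, read -0.80, -1.21 and -1.14 on the control arrays and -1.51, -2.49 and -1.61 on the I183P arrays, without overlap (5.24% of all features lay below control in this way). Its difference from control was -0.82 in I183P (adjusted p 0.564), 0.26 in I183M and -0.43 in delta. With normexp and quantile normalization these Ccl11 differences were -0.21, 0.54 and -0.05. The platelet chemokines Pf4 and Ppbp differed from control by 0.47 and -0.58 in I183M, 0.52 and 0.04 in I183P and 0.40 and -0.26 in delta. Without control replicate 1 the Pf4 differences were 0.08, 0.13 and 0.01. The atypical receptor Ackr1 was well above background on only 4 arrays. It differed by -1.20, -0.90 and -0.93 with all arrays and by -0.41, -0.11 and -0.15 without control replicate 1. With normexp and quantile normalization the Ackr1 differences were -0.13, 0.14 and 0.0066. Ccr6 differed by -1.12, -1.91 and -0.84 with all arrays and by 0.12, -0.66 and 0.41 without control replicate 1. Ccr7, a receptor of lymphocytes and dendritic cells, differed by -0.23, 0.53 and 0.15 with all arrays and by 0.0049, 0.77 and 0.38 without control replicate 1.

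Proteases that process chemokines also had no common direction. Mmp9 differed from control by -0.87, -0.66 and -0.80 in I183M, I183P and delta, Mmp14 by -0.62, -0.85 and -0.49, and Dpp4, which clips Cxcl10 and Cxcl12, by -0.23, -0.57 and -0.12. Mmp2 differed by 0.54, 0.38 and 0.32. Mmp9 was well above background on only 7 arrays, and its differences with normexp and quantile normalization were -0.08, 0.16 and 0.02. The values of these proteases moved without control replicate 1. Mmp9 then differed by -0.47, -0.26 and -0.40, Mmp14 by 0.25, 0.02 and 0.37, Dpp4 by 0.27, -0.07 and 0.38, and Mmp2 by 0.05, -0.10 and -0.16, so the sign turned for Mmp14 in all 3 lines, for Dpp4 in I183M and delta and for Mmp2 in I183P and delta. Nfkb1 differed by -0.28, -0.46 and -0.55 with all arrays and by 0.02, -0.16 and -0.25 without that array. Jak2 differed by 0.43, 0.41 and 0.49 with all arrays and by 0.10, 0.08 and 0.15 without it.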
